A study of Mus musculus with 6 samples.

Results

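The genes described here copy DNA and supply its building blocks. They are 47 genes of the replication machinery and of deoxynucleotide synthesis, taken from a list of symbols, each read from the single-symbol probe set with the highest mean over 6 arrays. All 47 were found among the 19938 genes with such a probe set, and all 47 passed the filter on dim genes that left 13956 genes for testing. The dimmest member, Orc1, had a mean log2 signal of 6.79 over the 6 arrays, where the filter stood at 6.58.

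The samples were dendritic cells grown from the bone marrow of female C57BL/6J recipient mice. The UV-donor group (3 arrays, UV irradiated 1 to 3) came from recipients given 2000000 marrow cells of UV irradiated B6.SJL-Ptprca mice, a congenic strain with the CD45.1 alloantigen, whose shaved backs had received up to 8 kJ/m2 of UVB-rich light at 6 to 10 weeks of age. The naive-donor group (3 arrays, Control 1 to 3) came from recipients given the same number of cells of naive B6.SJL-Ptprca mice. Their donor age is likewise given as 6 to 10 weeks. Marrow of both groups was cultured for 5 days in GM-CSF and IL-4 at 10 ng/ml each, then enriched to more than 95% CD11c+ cells on magnetic beads. How much of the marrow descended from donor cells, and how recipients were prepared, is not given in the sources used here. The series' design text also describes prostaglandin E2 pellets, which no label of these samples names. Nothing in the labels says that the 3 preparations of a group came from separate mice, so the tests measure the spread between preparations, which may be technical.

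DNA replication starts at origins bound by the origin recognition complex. In G1 phase CDC6 and CDT1 help it to load the ring-shaped MCM helicase, which stays inactive until kinases, CDC45 and the GINS complex switch it on in S phase. Primase and polymerases then copy both strands, a sliding clamp holds the polymerases on DNA, and ribonucleotide reductase, thymidylate synthase and thymidine kinase feed deoxynucleotides to the fork. Many of these genes are known targets of E2F transcription factors, which are released when cells pass from G1 into S phase. Dendritic cells that have finished differentiation divide little, while their precursors in GM-CSF cultures divide.

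Cells of the UV-donor group had higher signals for nearly the whole set, by 1.22-fold on average, although no single gene passed the test. Values were higher in the UV-donor group for 45 of the 47 genes, where 50.6% of all tested genes were. The differences were widest for primase Prim1 (1.55-fold), polymerase epsilon Pole (1.54-fold), the helicase subunit Mcm7 (1.51-fold) and the ribonucleotide reductase subunit Rrm2 (1.47-fold). On the log2 scale these were 0.63, 0.62, 0.59 and 0.56, or 0.48, 0.45, 0.42 and 0.39 without UV-donor array 1. The core origin subunits Orc2, Orc3, Orc4 and Orc5, the clamp Pcna, the thymidylate synthase Tyms and the deoxyuridine triphosphatase Dut differed by less than 0.1 on the log2 scale.

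The mean log2 signal of the 47 genes was 9.52, 9.29 and 9.29 on UV-donor arrays 1, 2 and 3, against 9.01, 9.21 and 9.03 on naive-donor arrays 1, 2 and 3. The groups did not overlap, but the lowest UV-donor mean lay only 0.080 above the highest naive-donor mean, while the arrays spread over 0.23 within the UV-donor group and 0.19 within the naive-donor group. As group values the mean was 9.37 ± 0.13 in the UV-donor group and 9.08 ± 0.11 in the naive-donor group (SD, n = 3 each). The difference was 0.28. UV-donor array 1 stood apart: it was the highest of all 6 arrays for 41 of the 47 genes. Among the naive-donor arrays, replicate 2 was the highest for 40 of 47. Without UV-donor array 1 the mean difference was 0.21.

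**Figure D1:**
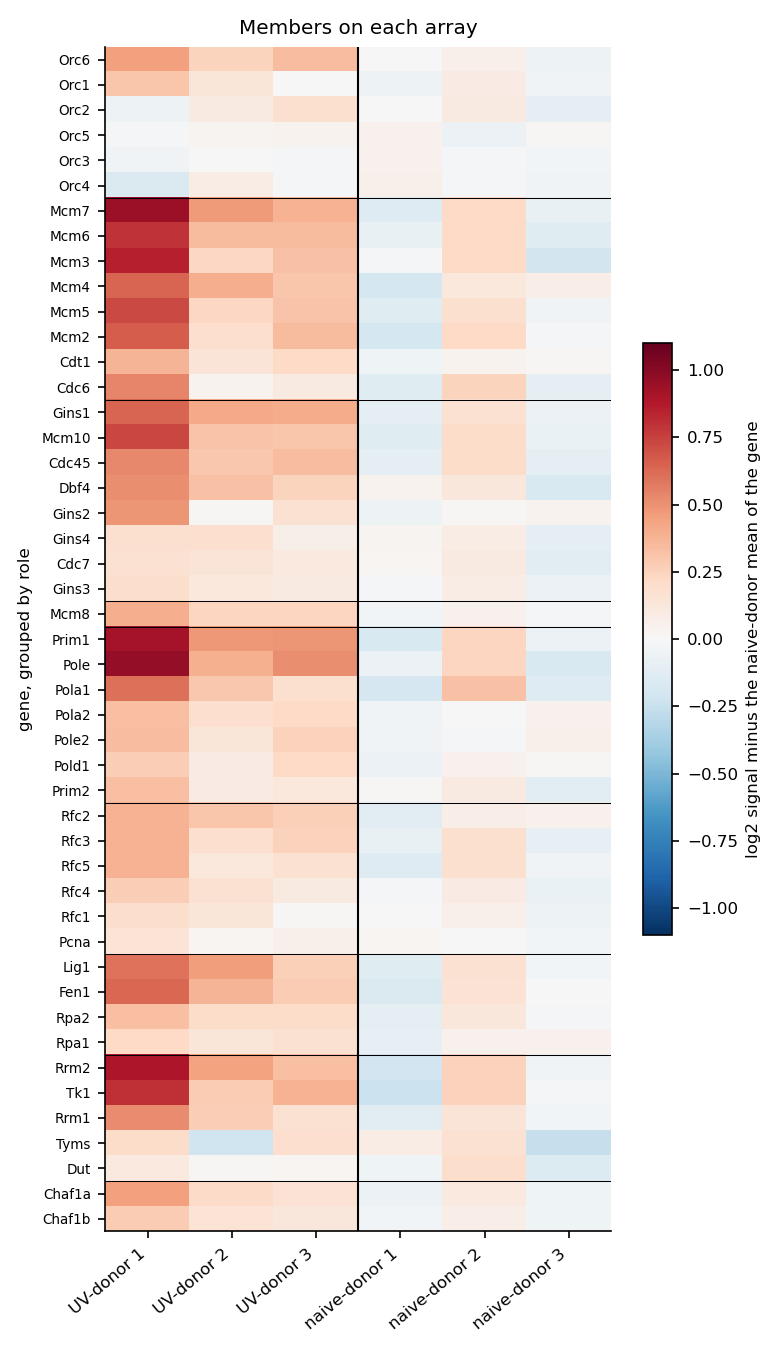
Log2 signal of each of the 47 genes on each array (columns; UV-donor left of the line, naive-donor right), minus that gene's mean over the 3 naive-donor arrays; horizontal lines divide the roles. UV-donor array 1 is the reddest column, with 41 genes at their highest there, and naive-donor array 2 is the highest naive-donor column for 40 genes.

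None of the 47 genes was called at an adjusted p under 0.05 (limma, Benjamini-Hochberg over 13956 genes), where 0.172% of all tested genes were called higher and 0% lower. The smallest limma adjusted p among the members was 0.101. At an unadjusted p under 0.05, 33 members were higher and 0 lower, against 9.6% and 5.49% of all tested genes. The 3 UV-donor arrays all lay above the 3 naive-donor arrays for 32 members, against 12.4% of tested genes, and all below for 0 members, against 9.37%. The median difference of the members was 0.25 on the log2 scale and that of all tested genes 0.0016. Without UV-donor array 1, 28 members were below an unadjusted p of 0.05 in limma. Without naive-donor array 2 the groups of 41 members did not overlap, but leaving out an array cannot lower this count. The 9.6% and 12.4% of tested genes were taken with all arrays, so they are no comparison for these 28 and 41 members. In bulk preparations of this kind, more dividing cells and more transcript per cell cannot be told apart.

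**Figure D2:**
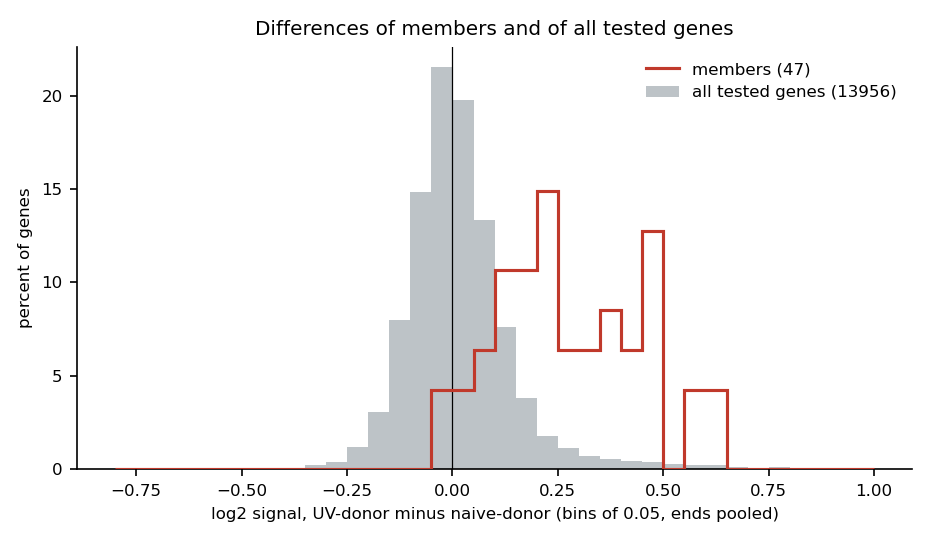
Percent of genes (vertical axis) by log2 difference, UV-donor minus naive-donor, in bins of 0.05 (horizontal axis), for the 47 members (red outline) and all 13956 tested genes (grey). The members spread from -0.033 to 0.63 with a median of 0.25, while the grey distribution is centred near 0.0016.

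Of the 6 origin recognition genes only Orc6 had groups that did not overlap, with higher values. Over all tested genes that share was 12.4%, and 1 gene of 6 does not set this role group apart from it. ORC marks origins and, with CDC6, loads the MCM ring. Orc6, the small subunit, had log2 signals of 8.92, 8.71 and 8.80 in the UV-donor group, against 8.47, 8.52 and 8.41 in the naive-donor group, a 1.27-fold difference (0.35, SE 0.063, limma adjusted p = 0.101). Its groups did not overlap, and the difference was 0.29 without UV-donor array 1. Orc1, the subunit whose amount varies through the cell cycle in human cells, had 7.02, 6.84 and 6.71, against 6.66, 6.81 and 6.67, so its groups overlapped (difference 0.14, limma adjusted p = 0.4345). The Orc1 difference was 0.064 without UV-donor array 1. Orc5 was level, at 9.85, 9.90 and 9.90 in the UV-donor group, against 9.91, 9.80 and 9.88 in the naive-donor group (0.020, 95% interval -0.095 to 0.13). Orc2 (0.072), Orc3 (-0.019) and Orc4 (-0.033) overlapped between groups too. The mean difference of Orc2 to Orc5 was 0.010, and that of Orc1 and Orc6 was 0.25. Without UV-donor array 1 these means were 0.049 and 0.18, and Orc4 had a difference of 0.031, turned in sign. Orc2 then differed by 0.14, more than Orc1, so the 2 means did not divide the single genes. UV-donor array 1, the highest array for most members, was the lowest UV-donor array for the mean of Orc2 to Orc5, at -0.068 relative to the naive-donor mean, against 0.053 and 0.045 on UV-donor arrays 2 and 3.

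The helicase loading genes had the highest mean difference of the role groups, 0.41 on the log2 scale. In the UV-donor group all 8 had higher values, 7 at an unadjusted p under 0.05 and 6 without overlap. Over all tested genes these shares were 50.6%, 9.6% and 12.4%, here and for each role group below. Mcm7, a subunit of the MCM ring, had 10.82, 10.35 and 10.26 in the UV-donor group, against 9.74, 10.10 and 9.80 in the naive-donor group, a difference of 0.59 (SE 0.15, limma adjusted p = 0.157). Mcm4 had 10.15, 9.91 and 9.81, against 9.31, 9.63 and 9.58, a difference of 0.45 (SE 0.11, limma adjusted p = 0.149). In both genes every UV-donor array was above every naive-donor array. The other ring subunits differed by 0.50 (Mcm6), 0.47 (Mcm3), 0.42 (Mcm5) and 0.40 (Mcm2), the last with overlapping groups. Without UV-donor array 1, Mcm3 differed by 0.27, Mcm5 by 0.27 and Mcm2 by 0.26. All 6 ring subunits therefore lay between 0.40 and 0.59, or 1.39-fold on average, and their mean was 0.77 above the naive-donor mean on UV-donor array 1, against 0.31 and 0.34 on UV-donor arrays 2 and 3.

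The loaders of the ring differed less. Cdt1, which brings the ring to the origin and is destroyed in S phase, differed by 0.25 without overlap (limma adjusted p = 0.167). Cdc6, the loading ATPase, had 8.31, 7.81 and 7.87 in the UV-donor group, against 7.64, 8.01 and 7.66 in the naive-donor group (0.23, SE 0.15, limma adjusted p = 0.497). UV-donor arrays 2 and 3 lay below naive-donor array 2, and the Cdc6 difference was 0.068 without UV-donor array 1.

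Of the 5 ring subunits with a promoter window, 4 held an E2F word (Mcm3, Mcm5, Mcm6 and Mcm7, and not Mcm2), and the 3 with a word before the start are printed to show where it lies. Sequences are RefSeq's for mouse build GRCm38.p6, each the 200 bases before an annotated start, 5′ to 3′ on the gene's strand, with E2F words in capitals. An E2F word here is TTTCCCGC, TTTGGCGC, TTTCGCGC or TTTGCCGC on either strand.
Mcm7, chr5:138171884-138172083, minus strand: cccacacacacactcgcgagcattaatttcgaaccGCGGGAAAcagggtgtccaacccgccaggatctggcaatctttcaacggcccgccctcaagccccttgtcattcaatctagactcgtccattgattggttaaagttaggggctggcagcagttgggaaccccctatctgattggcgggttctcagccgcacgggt
Mcm6, chr1:128359706-128359905, minus strand: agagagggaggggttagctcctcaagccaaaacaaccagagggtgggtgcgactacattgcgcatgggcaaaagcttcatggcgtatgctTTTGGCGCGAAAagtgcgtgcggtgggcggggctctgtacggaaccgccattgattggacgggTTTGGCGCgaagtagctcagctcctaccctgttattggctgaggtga
Mcm5, chr8:75109309-75109508, plus strand: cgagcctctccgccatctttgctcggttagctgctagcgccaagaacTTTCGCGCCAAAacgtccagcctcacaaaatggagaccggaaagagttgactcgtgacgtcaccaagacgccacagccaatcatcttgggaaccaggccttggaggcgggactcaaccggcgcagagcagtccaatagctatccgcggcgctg
In Mcm6 and in Mcm5 the longer run of capitals is a pair of overlapping words on opposite strands.

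Promoter windows, each from 250 bases before a start to 50 after it, were held for 40 of the 47 members. An E2F word stood in a window of 15 of those 40 genes (37.5%), against 477 of 11112 tested genes with a window (4.29%) and 1 of 21 mitosis genes (4.76%). The word was about as frequent in other genes of replication forks and origins, at 9 of 27 (33.3%). The TTTGAA element known from mitotic promoters (CHR), searched on both strands, stood in 6 of the 40 (15%), against 14.3% of tested genes and 15 of the 21 mitosis genes (71.4%). The windows were not matched for base composition. Having the E2F word did not divide the members by size of difference: the median was 0.27 in the 15 with it (range -0.019 to 0.59) and 0.24 in the 25 without it (range -0.033 to 0.63). Word sites of 7 further members, with 10 bases on each side, show the range of differences (in brackets) beside the same kind of word. Lig1, Mcm8, Rfc3 and Pold1 held words too.
Pola1 (0.36), chrX:93632276-93632303, minus strand: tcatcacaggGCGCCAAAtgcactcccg
Cdt1 (0.25), chr8:122568037-122568064, plus strand: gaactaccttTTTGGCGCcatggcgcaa
Pole2 (0.24), chr12:69228163-69228190, minus strand: gtcggcggtgGCGCCAAAtcgcgaacat
Cdc6 (0.23), chr11:98908003-98908030, plus strand: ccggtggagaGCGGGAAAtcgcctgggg
Orc1 (0.14), chr4:108579417-108579444, plus strand: tcggttagtgGCGCGAAAagttttctcc
Gins3 (0.14), chr8:95633508-95633535, plus strand: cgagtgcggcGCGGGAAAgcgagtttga
Orc3 (-0.019), chr4:34614966-34614993, minus strand: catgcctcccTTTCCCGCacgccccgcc
Orc3, with its word 41 bases before the start, was level between groups, and Prim1, with the widest difference of all members, had no such word in its window. A match says only that these letters are present.

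In the UV-donor group the 8 genes that switch on the loaded helicase all read higher, 5 of 8 at an unadjusted p under 0.05 and 6 of 8 without overlap. Gins1, a subunit of the GINS complex that binds the active helicase, had 7.61, 7.39 and 7.38 in the UV-donor group, against 6.87, 7.13 and 6.90 in the naive-donor group, a difference of 0.49 (SE 0.089). Its limma adjusted p of 0.101 was the smallest of the members. Cdc45, the other partner of the active helicase, had 8.96, 8.72 and 8.77, against 8.33, 8.63 and 8.32, a difference of 0.39 (SE 0.097, limma adjusted p = 0.157). In both genes naive-donor array 2 came nearest to the UV-donor arrays without reaching them.

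The GINS subunits were unequal. Gins2 had 9.84, 9.37 and 9.52 in the UV-donor group, against 9.30, 9.37 and 9.39 in the naive-donor group (0.22, limma adjusted p = 0.374), and only UV-donor arrays 1 and 3 were clear of the naive-donor range. The Gins2 difference was 0.090 without UV-donor array 1. Gins3 and Gins4 differed by 0.14 each, Gins3 without overlap. Mcm10, a factor that helps to activate the helicase, differed by 0.45 (limma adjusted p = 0.182), and Dbf4, the regulatory subunit of the CDC7 kinase, by 0.36 (limma adjusted p = 0.162), both without overlap. Cdc7 itself, the catalytic subunit, differed by 0.14 (95% interval -0.0052 to 0.28). Mcm8, a relative of the ring subunits known for work in homologous recombination, had 7.85, 7.68 and 7.68 in the UV-donor group, against 7.41, 7.49 and 7.43 in the naive-donor group (0.29, SE 0.060, limma adjusted p = 0.122), and its groups did not overlap.

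**Figure D3:**
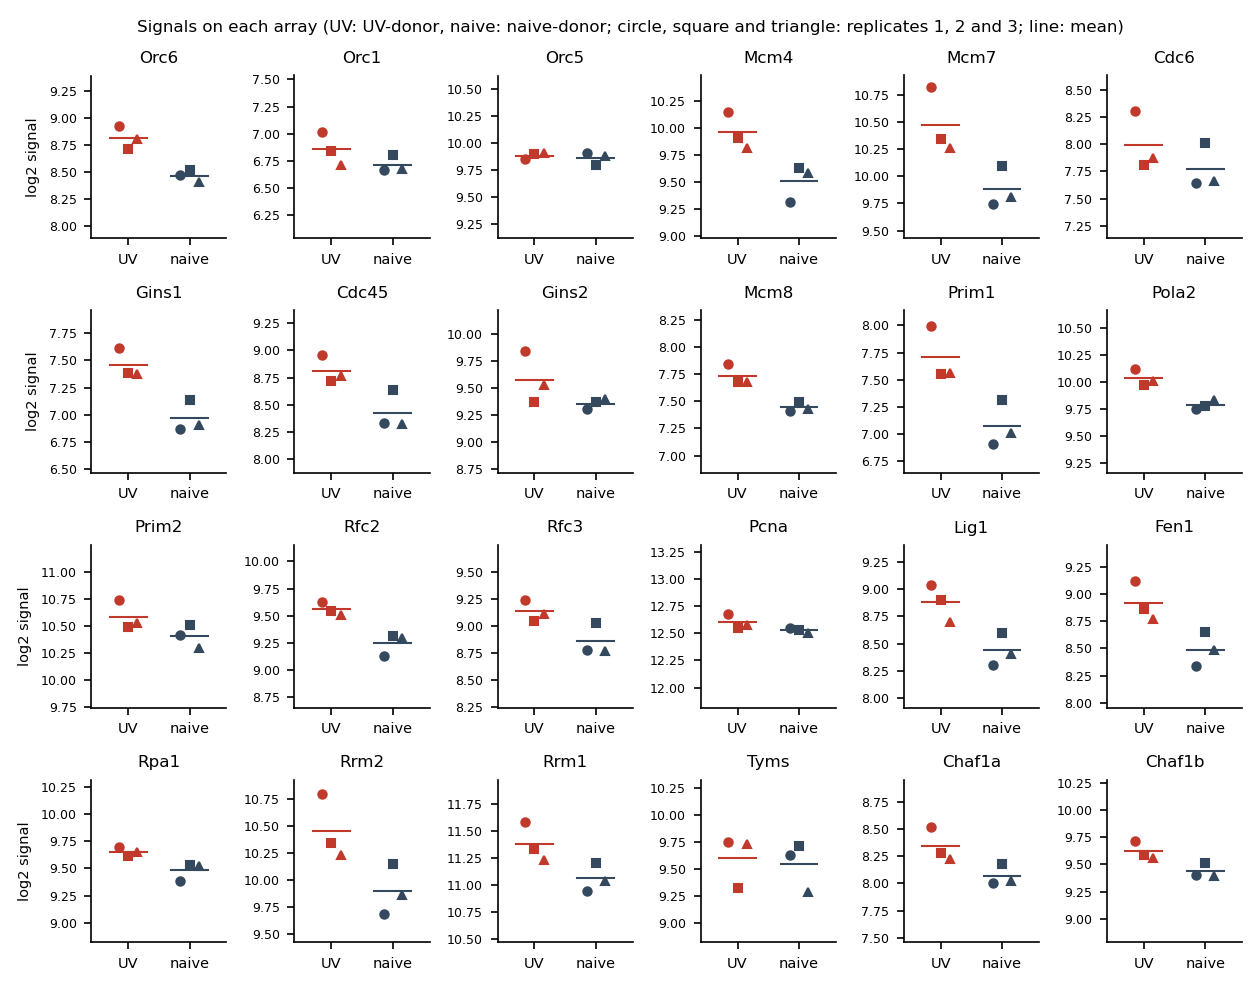
Log2 signal (vertical axis, each panel spanning 1.5 units) of 24 members in UV-donor (red, left) and naive-donor (dark, right) preparations; circles, squares and triangles are replicates 1, 2 and 3 and lines are group means (n = 3 each). The red circle, UV-donor array 1, is the highest point in most panels, while in Orc5 and Tyms the arrays of both groups are interleaved.

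In the UV-donor group all 7 primase and polymerase genes had higher values, 6 at an unadjusted p under 0.05 and 5 without overlap. Prim1, the catalytic primase subunit that makes the RNA primer, had 7.99, 7.56 and 7.56 in the UV-donor group, against 6.90, 7.31 and 7.01 in the naive-donor group, a difference of 0.63 (SE 0.14, limma adjusted p = 0.1375). Its difference was 0.48 without UV-donor array 1. Prim2, the other primase subunit, had 10.74, 10.49 and 10.52, against 10.42, 10.51 and 10.29, and its groups overlapped (0.18, limma adjusted p = 0.343). The Prim2 difference was 0.10 without UV-donor array 1.

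Subunits of one polymerase also differed in size. Pola2, the accessory subunit of polymerase alpha, had 10.12, 9.97 and 10.01 in the UV-donor group, against 9.75, 9.78 and 9.83 in the naive-donor group (0.25, SE 0.055, limma adjusted p = 0.142). The catalytic Pola1 differed by 0.36 with overlapping groups, since UV-donor arrays 2 and 3 (8.63 and 8.51) lay below naive-donor array 2 (8.65), and its difference was 0.24 without UV-donor array 1. Pole, the catalytic subunit of the leading-strand polymerase epsilon, differed by 0.62 (SE 0.16, limma adjusted p = 0.157), its subunit Pole2 by 0.24 and the catalytic subunit of polymerase delta, Pold1, by 0.19, all without overlap.

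The clamp and its loader showed smaller differences. Pcna, the ring that tethers polymerases to DNA, had 12.68, 12.55 and 12.58 in the UV-donor group, against 12.55, 12.53 and 12.50 in the naive-donor group. The UV-donor arrays all lay above, but by less than 0.01 at the nearest point, and the difference was 0.076 (95% interval -0.042 to 0.19, limma adjusted p = 0.515), or 0.037 without UV-donor array 1. The second single-symbol probe set of Pcna gave nearly the same values and a difference of 0.074; whether both read the same sequences was not checked.

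The RFC complex opens the clamp and places it on DNA. Rfc2 had 9.63, 9.55 and 9.50 in the UV-donor group, against 9.13, 9.32 and 9.29 in the naive-donor group (0.32, SE 0.064, limma adjusted p = 0.118). Rfc3 had 9.24, 9.05 and 9.11, against 8.78, 9.03 and 8.77 (0.27, limma adjusted p = 0.199). Neither overlapped, although UV-donor array 2 and naive-donor array 2 of Rfc3 nearly met. Rfc5 (0.22), Rfc4 (0.18) and the large subunit Rfc1 (0.12) followed, Rfc5 and Rfc1 with overlapping groups. Rfc5 differed by 0.14 and Rfc1 by 0.076 without UV-donor array 1.

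The 4 genes of single-strand binding and lagging-strand processing all had an unadjusted p under 0.05, with higher values and no overlap. Lig1, the ligase that seals Okazaki fragments, had 9.04, 8.90 and 8.70 in the UV-donor group, against 8.30, 8.60 and 8.41 in the naive-donor group (0.44, SE 0.10, limma adjusted p = 0.1435). Fen1, the nuclease that trims their flaps, had 9.12, 8.86 and 8.77, against 8.33, 8.65 and 8.48 (0.43, SE 0.11, limma adjusted p = 0.157). Both of these processing enzymes differed by more than the subunits of RPA, which coats single-stranded DNA, though this was not tested. Rpa1 had 9.70, 9.62 and 9.65, against 9.39, 9.53 and 9.53 (0.17, limma adjusted p = 0.216), and Rpa2 differed by 0.24.

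The 5 nucleotide supply genes divided into 3 with wide and 2 with small differences. Rrm2, the small subunit of ribonucleotide reductase whose amount follows S phase, had 10.79, 10.34 and 10.23 in the UV-donor group, against 9.68, 10.15 and 9.86 in the naive-donor group (0.56, SE 0.16, limma adjusted p = 0.182). Rrm1, the large subunit, had 11.58, 11.33 and 11.23, against 10.95, 11.21 and 11.03 (0.32, SE 0.10, limma adjusted p = 0.209). Neither gene overlapped between groups. Tk1, the thymidine kinase of the salvage route, differed by 0.49 without overlap (limma adjusted p = 0.2125), and by 0.33 when UV-donor array 1 was left out. On its second single-symbol probe set the Tk1 difference was 0.67, with signals of 9.25, 8.31 and 8.62 in the UV-donor group, against 7.80, 8.32 and 8.04 in the naive-donor group, and there UV-donor array 2 was just below naive-donor array 2.

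Thymidylate synthase showed no clear difference between the groups, though its wide interval also held the mean difference of the 47 members, 0.28. Tyms, which makes thymidylate from deoxyuridylate, had 9.75, 9.33 and 9.73 in the UV-donor group, against 9.63, 9.71 and 9.29 in the naive-donor group. The groups overlapped over almost their whole range (0.057, 95% interval -0.26 to 0.37, limma adjusted p = 0.884), and without UV-donor array 1 the difference was -0.017. Dut, which removes deoxyuridine triphosphate and yields the substrate of thymidylate synthase, differed by 0.047 (95% interval -0.15 to 0.24), or 0.017 without that array. The mean of the 5 supply genes was the single role mean whose groups overlapped: UV-donor array 2 (9.73) lay below naive-donor array 2 (9.77).

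Chromatin assembly factor 1 deposits histones on new DNA, and both of its members here were higher at an unadjusted p under 0.05 without overlap. Chaf1a, its large subunit, had 8.52, 8.28 and 8.23 in the UV-donor group, against 8.01, 8.18 and 8.03 in the naive-donor group (0.27, SE 0.085, limma adjusted p = 0.207). Chaf1b had 9.72, 9.59 and 9.56, against 9.41, 9.52 and 9.39 (0.19, SE 0.060, limma adjusted p = 0.219). In both genes the nearest arrays were a UV-donor array and naive-donor array 2.

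**Figure D4:**
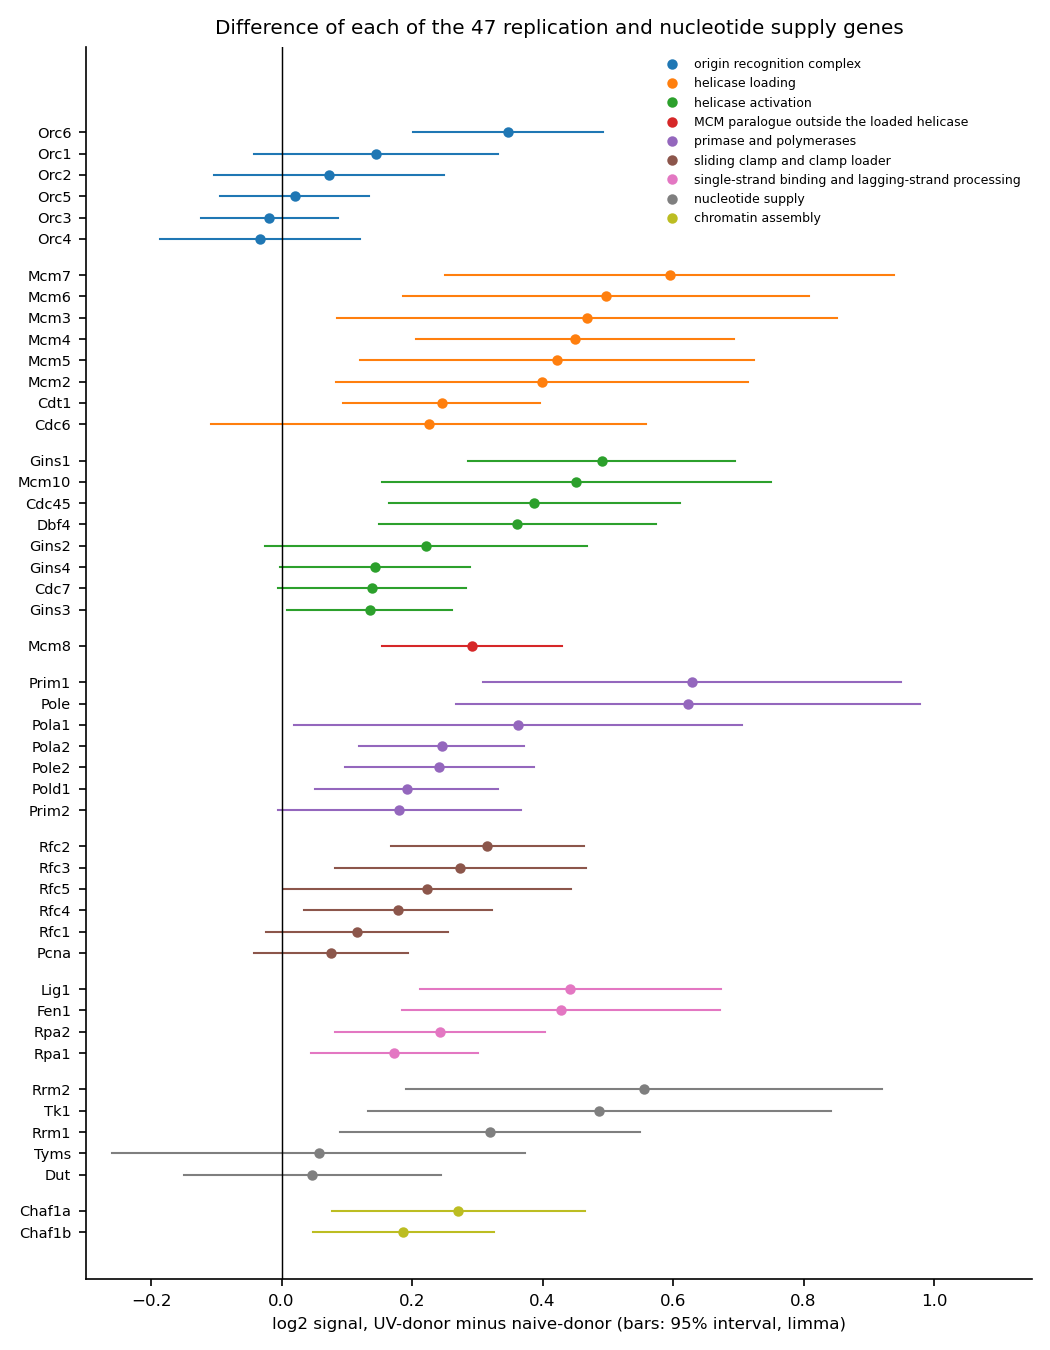
Log2 difference, UV-donor minus naive-donor, of each of the 47 genes (points) with its 95% interval from limma (bars), grouped and coloured by role. Intervals lie wholly above 0 for 33 genes and reach 0 for 14, among them Orc1 to Orc5, Cdc6, Pcna, Tyms and Dut.

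Other genes of the pathway were read on 3 further lists, with no call in limma over all genes. More genes read higher than lower on each. The counts were 27 against 4 for forks and origins, 29 against 5 for S-phase entry and 24 against 13 for wider nucleotide routes. Of all tested genes 50.6% read higher. Of 30 tested genes of replication forks and origins, 19 read higher at an unadjusted p under 0.05 and 0 lower. Over all tested genes these shares were 9.6% and 5.49%. The median difference of the fork and origin genes was 0.20 over the 31 measured. The smallest p belonged to Donson, a replisome protein (0.34, limma adjusted p = 0.05065), Dtl, which directs the destruction of CDT1 (0.50), and Rpa3, the smallest RPA subunit (0.30). Of 34 regulators of entry into S phase, 16 were higher and 1 lower at that threshold, with a median of 0.12. They were led by cyclin A2, Ccna2 (0.56), the phosphatase Cdc25a (0.20) and Myc (0.27). The lower one was the cell cycle inhibitor Cdkn2a (-0.29, limma adjusted p = 0.199), named after its value was seen.

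The wider nucleotide routes were nearly level. Of 37 tested genes of nucleotide synthesis and salvage, 5 read higher at an unadjusted p under 0.05 and 1 lower, against 9.6% and 5.49% of all tested genes, and their median difference was 0.037. The smallest p belonged to the folate enzyme Shmt1 (0.27), the p53-inducible reductase subunit Rrm2b (0.17) and thymidylate kinase Dtymk (0.15). The other higher ones, Cad and Ctps of pyrimidine synthesis, and the lower one, Adss of purine synthesis (-0.19), are named after their values were seen. This list was a comparison with no test of its difference from the members.

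Mitosis genes, another set tied to cell division, had the same highest arrays as the replication genes. In the UV-donor group all 24 read higher (50.6% of all tested genes did), 23 at an unadjusted p under 0.05 (9.6%). Limma called 0 of these mitosis genes. Their median difference was 0.55, against 0.25 for the 47 members, led by Aurka (0.53), Prc1 (0.62) and Cdc20 (0.52). Relative to the naive-donor mean they stood at 0.84, 0.42 and 0.36 on UV-donor arrays 1, 2 and 3, against -0.14, 0.23 and -0.088 on naive-donor arrays 1, 2 and 3. The same means of the 47 members were 0.43, 0.20 and 0.21, against -0.068, 0.12 and -0.056. UV-donor array 1 was highest and naive-donor array 2 was the highest naive-donor array in both lists.

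**Figure D5:**
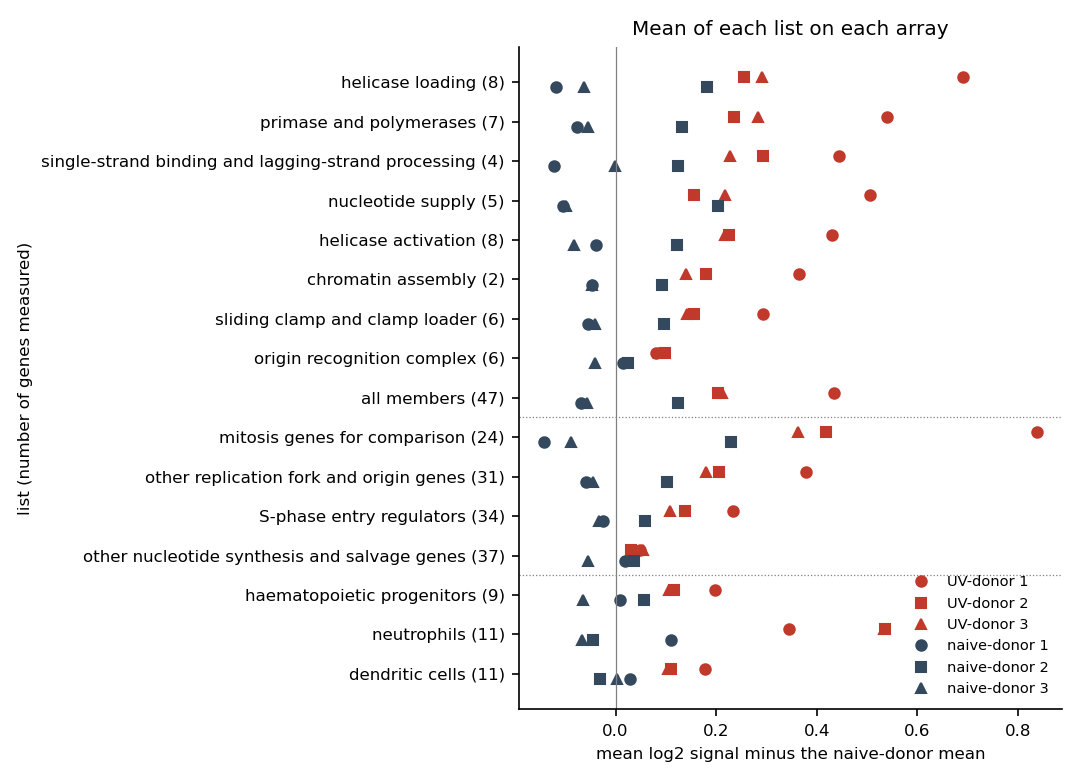
Mean log2 signal of each list on each array minus its naive-donor mean (horizontal axis); red points are UV-donor arrays, dark points naive-donor arrays, shapes the replicate numbers, and the number of genes measured stands in brackets. UV-donor array 1 is the highest point of every role group except the origin recognition complex, and the neutrophil markers near the foot have UV-donor array 1 as their lowest UV-donor point.

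Markers of cell types that the cultures could hold were read beside these genes. The dendritic cell genes Itgax (CD11c), H2-Ab1 and Cd74 had log2 signals from 12.50 to 13.79 over all arrays, while Flt3 was below the dim filter, and the mean level of the list ran from 11.01 to 11.08 on UV-donor arrays and from 10.87 to 10.93 on naive-donor arrays. Of the 10 tested dendritic markers 2 were higher at an unadjusted p under 0.05, Cd209a (called, 0.59) and Ciita (0.49). Of all tested genes 9.6% were. The calls of marker genes, Cd209a here and Ltf, S100a8, Ms4a3 and C1qb among the other lists, were among 24 in the series, of which none was left with the replicate block or with all probe sets tested together. In limma 1 gene was called without UV-donor replicate 2, UV-donor replicate 3 or naive-donor replicate 1, and 3 genes without naive-donor replicate 3. Of 7 tested progenitor markers 2 were higher, Cd34 (0.76, limma adjusted p = 0.12) and Gata2 (0.12), and the mean level of that list ran from 7.44 to 7.53 on UV-donor arrays and from 7.27 to 7.39 on naive-donor arrays. Of the 9 progenitor markers measured, 4 were highest of all arrays on UV-donor array 1.

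Neutrophil markers were higher too, with their mean in another order of arrays. Ltf (0.54) and S100a8 (0.77) were called. Of 11 tested, 8 had an unadjusted p under 0.05 with higher values, as had 9.6% of all tested genes. The mean level of the neutrophil list ran from 9.30 to 9.49 on UV-donor arrays and from 8.88 to 9.06 on naive-donor arrays. It was lowest among UV-donor arrays on replicate 1. Yet 3 of the 11 markers, Mmp8 and Cxcr2 among them, were highest of all arrays there. Of 7 tested markers of granulocyte progenitors, Ms4a3 was called (1.09) and no other passed an unadjusted p of 0.05, with Prtn3 at -0.12 (-0.059 without UV-donor array 1), and the mean level ran from 7.60 to 7.64 against 7.47 to 7.49. Of 8 tested macrophage markers 4 were higher at that threshold, with C1qb called (0.63) and Adgre1 next (0.51). Mrc1 (-0.096, all UV-donor arrays below all naive-donor arrays), Mertk (-0.056) and Cd68 (-0.011) read lower. Without UV-donor array 1 Mertk turned in sign, to 0.056. Mean levels of the macrophage list were 10.60 to 10.67 against 10.42 to 10.43.

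The remaining lists held little. Among the 3 tested erythroid markers Tfrc (0.40) and Epor (-0.087) led with no gene at an unadjusted p under 0.05, and Tfrc differed by 0.19 without UV-donor array 1. Of 6 measured mast cell and basophil markers only Prss34 (-0.031) passed the dim filter, and of 7 lymphoid markers only Igll1 (0.095) and Cd3e (0.066) did. The part of any of these cell types in the higher replication signals was not tested.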

How the data were processed

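The deposited table holds log2 signals, 1 value per probe set on each of 6 arrays. RMA (background correction, quantile normalization, probe summary), oligo and limma are named without versions in the submitters' processing notes, and the summary level and scan dates are not given in the sources used here. Batches were therefore not examined. Between arrays, correlations over 35556 probe sets ran from 0.995 to 0.997, and medians from 7.16 to 7.23. The interquartile range was 3.71 to 3.75 on UV-donor arrays and 3.61 to 3.68 on naive-donor arrays.

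Values were used as deposited. Genes were named through the platform annotation: 21789 probe sets had 1 symbol, 1621 several and 12146 were not listed. The probe set with the highest mean stood for a gene, and genes below the 30th percentile were left out. The contrast of UV-donor minus naive-donor was fitted by lmFit and eBayes of limma 3.58.1 (R 4.3.3), with two-sided p-values and Benjamini-Hochberg adjustment over all tested genes, and the code was tested on simulated data. With 3 arrays a group, exact permutation p-values stop at 0.1. The number of arrays limits the precision. The members and all lists were chosen with earlier results of these data known, so no p is given for a list. Genes named with values on each array are, per role, the 2 of smallest and the 1 of largest p. Other lists give the 3 (pathway) or 2 (markers) of smallest p. Same-numbered arrays deviated from their group means with correlations of -0.14, -0.22 and 0.15. These values cannot show whether preparations were paired, and the main fit used no pairing. Promoters come from RefSeq on GRCm38.p6. Figures were drawn with matplotlib 3.10.9.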

Additional observations from a re-analysis of the deposited data

How the results depend on the processing

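No member was called under any alternative run. These were the replicate block, no dim filter, a 50th percentile dim filter (42 members tested), averaged probe sets, all probe sets, array weights, centred medians, quantile normalization, cyclic loess, a robust prior with an intensity trend, an adjusted p under 0.10, and leaving out each array in turn. With the replicate block 32 members were below an unadjusted p of 0.05, against 33 without it. With single arrays left out that count ran from 24 to 37, and the mean difference from 0.21 to 0.35. The share of all tested genes below that p was not taken in these runs. The count of members without overlap ran from 32 to 41, but leaving out an array cannot lower it. The mean difference was 0.32 with centred medians, 0.26 with quantile normalization and 0.24 with array weights.

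Signs turned for 2 of the 24 genes given by array, both with small differences between groups. Orc5 was -0.0027 with cyclic loess and -0.013 with quantile normalization, and ran from -0.013 (naive-donor replicate 2 left out) to 0.045 (naive-donor replicate 1 left out). Tyms ran from -0.069 (naive-donor replicate 3 left out) to 0.19 (UV-donor replicate 2 left out), and was -0.017 when UV-donor replicate 1 and -0.0058 when UV-donor replicate 3 was left out. The cause was not tested.

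The 24 calls among all genes were 0 with the replicate block or all probe sets, 43 with centred medians or array weights, 45 with the intensity trend and 70 at an adjusted p under 0.10. With 1 array left out they numbered 1 (UV-donor replicate 2 or 3, or naive-donor replicate 1), 3 (naive-donor replicate 3), 22 (UV-donor replicate 1) and 32 (naive-donor replicate 2). Without naive-donor replicate 1, the genes at an unadjusted p under 0.05 numbered 11 among the S-phase entry regulators, against 17, and 2 among the wider nucleotide genes, against 6. The share of all tested genes in that fit was not taken.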

Other observations

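The E2F family, given here whole and chosen after its values were seen, ran from 0.015 to 0.60 on the log2 scale. Limma gave it adjusted p-values of 0.164 or more, up to 0.929. The members that repress transcription late in S phase, E2f8 (0.60) and E2f7 (0.36), stood beside the activators E2f2 (0.36), E2f1 (0.20) and E2f3 (0.059). E2f6 differed by 0.15, E2f5 by 0.055 and E2f4 by 0.015. Without UV-donor array 1, E2f8 differed by 0.38 and E2f4 by -0.0098.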
